A study of Mus musculus with 4 samples.

Results

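The genes described here serve the NRF2 antioxidant response and the binding of metals by metallothioneins, 10 genes of the 18193 that the arrays named. They are Nfe2l2, Mt1, Mt2, Hmox1, Nqo1, Gclc, Gclm, Slc7a11, Txnrd1 and Srxn1. They were chosen by symbol, and each gene was represented by the probe set with the highest mean signal among its single-gene probe sets. All 10 were found, with 20 probe sets in all, and all 10 passed the filter on dim signals. Mice carried flank tumours of 293EBNA cells, a line derived from human embryonic kidney, grown to 2000 mm3 and transfected either with the empty vector (the Apex group, 2 arrays) or with the vector holding VEGFD (the VEGFD group, 2 arrays). Both groups thus bore a tumour, and no array came from a mouse without one. The RNA was labelled as that of endothelial cells sorted magnetically from dissected, dye-marked collecting lymphatic vessels that drained the tumour. The extraction text names lymph node rather than collecting vessel endothelium, and the groups follow the other labels. The sources used here do not give the strain, age or number of mice behind an array, so p-values measure only the spread between these arrays.

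NRF2, the product of Nfe2l2, is a transcription factor that KEAP1 marks for breakdown in unstressed cells. When oxidants or electrophiles modify KEAP1, NRF2 collects in the nucleus, pairs with small MAF proteins and binds antioxidant response elements near genes of glutathione synthesis, thioredoxin recycling and quinone detoxification. Metallothioneins are small cysteine-rich proteins that bind zinc and copper, and their genes answer to the zinc-sensing factor MTF-1 at metal response elements as well as to glucocorticoids. Much of NRF2 control acts on protein stability, so the Nfe2l2 transcript is no measure of NRF2 activity.

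The promoters of 4 genes are shown because their matches to these elements can be set beside the signals of the same genes. The sequences are the 150 bases before the start site in the RefSeq table, build GRCm38.p6, all on the plus strand and written 5′ to 3′. Mt2 is at chr8:94172468-94172617, Mt1 at chr8:94178939-94179088, Srxn1 at chr2:152105374-152105523 and Txnrd1, for the second of its 3 start sites in the table, at chr10:82859056-82859205. In the RefSeq gene table Mt1 begins further upstream than this start site, so the Mt1 stretch lies within the span of that gene model. Capitals mark a match, on either strand, to TGACNNNGC (the core of the antioxidant response element), TGANTCAGC (a site for NRF2-type factors with small MAF proteins, which overlaps the former in TGACTCAGC), or TGCACNC or TGCGCNC (the core of the metal response element).
Mt2: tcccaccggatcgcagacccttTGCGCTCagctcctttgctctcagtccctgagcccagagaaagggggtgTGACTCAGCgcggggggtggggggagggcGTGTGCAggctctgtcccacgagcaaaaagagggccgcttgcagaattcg
Mt1: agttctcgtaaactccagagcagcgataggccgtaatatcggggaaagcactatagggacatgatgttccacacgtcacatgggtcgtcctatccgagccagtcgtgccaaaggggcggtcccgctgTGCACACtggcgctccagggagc
Srxn1: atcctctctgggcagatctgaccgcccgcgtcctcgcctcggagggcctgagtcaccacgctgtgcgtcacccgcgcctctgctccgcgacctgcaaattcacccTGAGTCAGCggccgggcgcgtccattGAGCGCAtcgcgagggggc
Txnrd1: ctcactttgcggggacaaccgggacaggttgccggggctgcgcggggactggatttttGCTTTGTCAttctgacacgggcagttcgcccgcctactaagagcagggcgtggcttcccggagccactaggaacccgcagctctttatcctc

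The Mt2 stretch held a TGACTCAGC at position -79 from the start site, which matches both antioxidant patterns, between metal element matches at -128 and -50. The Mt1 stretch held a single metal element match, at -23, and its window held others at 3 and 21 after the start site. Which Mt1 start site these cells use is not known, and bases further than 50 after this start site were not searched. Srxn1 held its TGAGTCAGC at -45, and Txnrd1 an antioxidant core on the minus strand at -92. That was the 1 match to any of these patterns in the 3 Txnrd1 windows, so the windows of its other start sites held none. In windows from 250 bases before to 50 after the start site, 8 of the 10 genes had an entry in the table. TGACNNNGC lay in 12.4% of all 32851 windows and in 5 of the 10 windows of these genes. Those were the windows of Mt2, Srxn1, Gclm and Nfe2l2 and 1 of the 3 of Txnrd1. TGANTCAGC lay in 1.19% of all windows and in those of Mt2 and Srxn1. A metal element core lay in 25.7% of all windows and in those of Mt1, Mt2, Gclm and Srxn1, with 4 matches in Mt2 and 3 each in Mt1 and Gclm. The windows of Nqo1 and Slc7a11 held none of these letters. The map of motif matches places them all by distance from the start site.

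**Figure D1:**
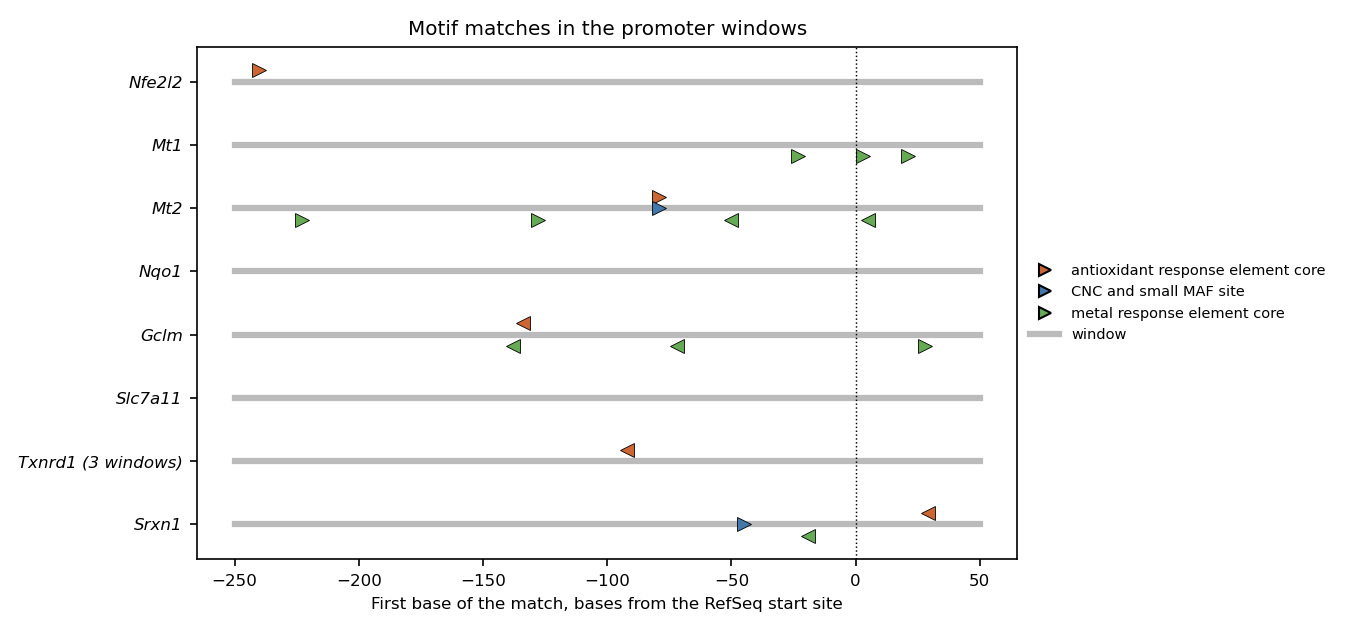
Motif matches in the promoter windows of the 8 genes with an entry in the RefSeq table. The horizontal axis is the distance in bases of a match's first base from the start site, arrowheads point right for the plus strand and left for the minus strand, and colours give the kind of element. Mt2 holds 4 metal element matches and, at -79, overlapping antioxidant and small MAF matches, while Nqo1 and Slc7a11 hold no match.

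The endothelial label was met by few markers on 3 of the 4 arrays, which bears on every value below. Of 10 endothelial markers, all 10 had a signal above 25.3, the bound of the filter on dim signals, in Apex replicate 2, but 5 did in Apex replicate 1, 5 in VEGFD replicate 1 and 2 in VEGFD replicate 2. Their summed signal ran from 339 to 3580 in the Apex group and from 195 to 363 in the VEGFD group. Without Emcn, the brightest of them, the sums were 290 and 909 in the Apex arrays and 257 and 171 in the VEGFD arrays. Of 6 measured lymphatic endothelial markers, the lymphatic factor gene Prox1 was at or below 25.3 on all arrays. Pdpn (963 and 1622 in the Apex arrays, 1237 and 1715 in the VEGFD arrays) was above it on all arrays. So was Flt4 (42.6 and 247, then 161 and 145), while Lyve1, Reln and Mmrn1 were above it on some arrays only. Summed fibroblast marker signals were 15835 to 17995 on the 4 arrays, but single markers differed. Dpt was 2725 and 2407 in the Apex arrays and 204 and 168 in the VEGFD arrays, and Col1a1 ran from 862 to 3342. Col1a2 (5555 to 6846) and Col3a1 (4545 to 5400) varied less. The arrays are named by their labels, and in such bulk RNA fewer cells of a type and less RNA per cell cannot be told apart. Where 4 signals are listed, those of Apex replicates 1 and 2 come first and those of VEGFD replicates 1 and 2 after them. Signals are linear probe set intensities. A log2 change is the VEGFD mean less the Apex mean of log2(signal + 16), given ± its standard error (SE) from limma with n = 2 and 2.

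None of the 10 genes passed an adjusted p of 0.05 in limma, and neither did any of the 11677 tested genes (0%). Without VEGFD replicate 1, 372 genes passed, among them Txnrd1, and without VEGFD replicate 2, 4 genes passed. At an unadjusted p below 0.05 there was 1 of the 10, Nqo1, against 5.7% of all tested genes. The groups did not overlap for 3 of the 10, against 38.5% of all tested genes, so that count is close to the background. Gclc and Nqo1 were the 2 with less signal in the VEGFD arrays (21.8% of all tested genes), and Txnrd1 the 1 with more (16.6%). At least 2-fold apart without overlap was 1 of the 10, Gclc, against 3.88% of all tested genes. That count was 0 without Apex replicate 2 or without VEGFD replicate 2, 3 without Apex replicate 1 and 2 without VEGFD replicate 1. With arrays centred on their medians Txnrd1 also passed that bound, which then held 192 higher and 239 lower of all genes, where the main scaling held 127 higher and 326 lower. The 10 genes had 7 log2 changes above 0 and 3 below, where 5417 of 11677 tested genes were above 0. Those of Mt1, Mt2, Hmox1 and Gclm, 4 of the 7, were under 0.1. The median was 0.072 against -0.035 for all tested genes. An exact permutation test of 2 arrays against 2 cannot go below p = 0.333. A fit that leaves 1 array in a group holds no variation within that group, so its p-values measure only the spread of the other group. The plot of signals by array shows each gene's 4 values.

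**Figure D2:**
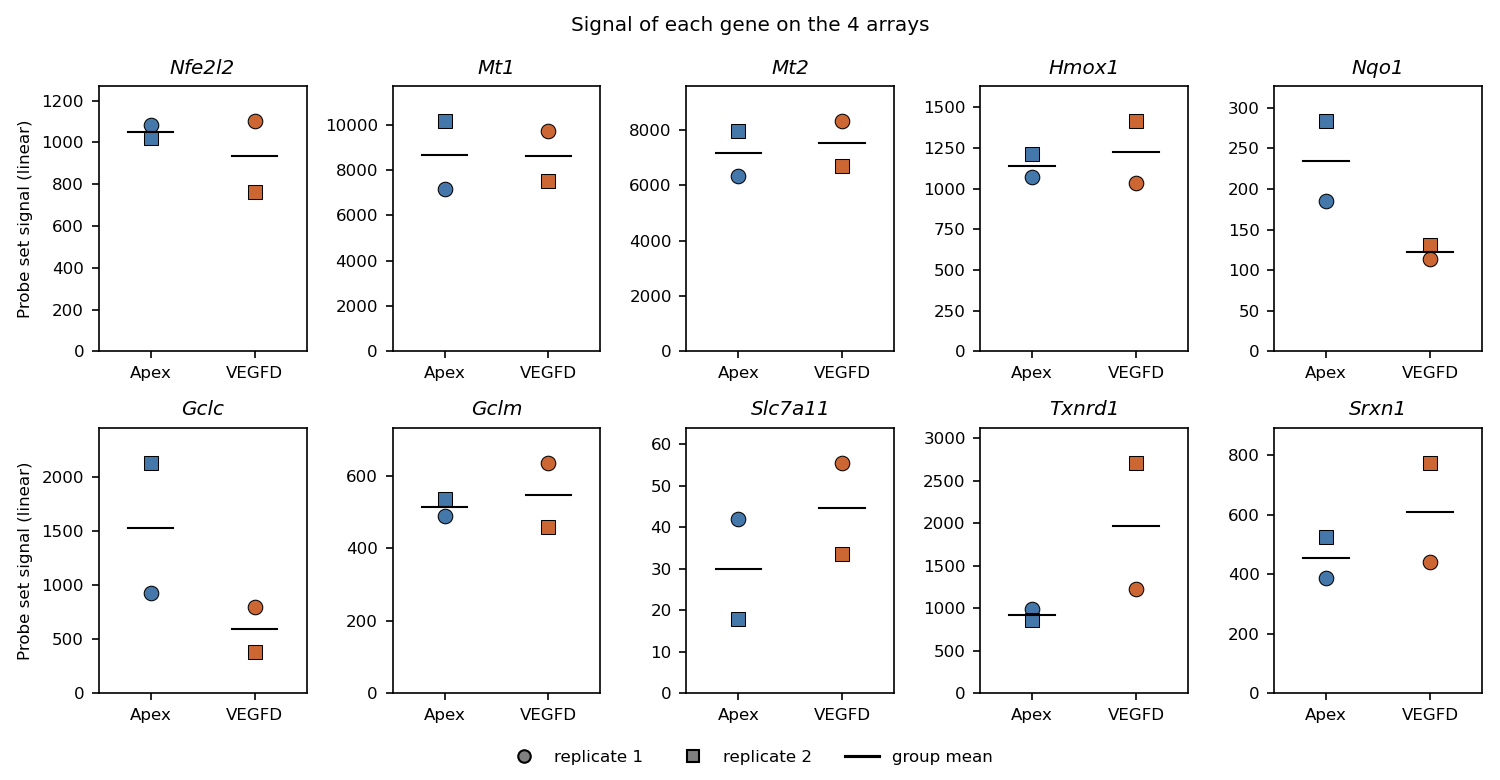
Signal of each gene on the 4 arrays. The vertical axis of each panel is the linear probe set signal from 0, circles are replicate 1, squares replicate 2, blue Apex, orange VEGFD, and the bar is the group mean of 2 arrays. The points of Nqo1, Gclc and Txnrd1 do not overlap between groups, and in Txnrd1 the VEGFD replicates lie at 1232 and 2711.

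The regulator gene Nfe2l2 differed little between arrays. Its signals were 1083, 1021, 1104 and 764. Apex replicates 1 and 2 and VEGFD replicate 1 lay close together, VEGFD replicate 2 was the lowest, and the groups overlapped. This gave a log2 change of -0.19 ± 0.26 (limma adjusted p = 0.886, 95% interval -0.85 to 0.47), and 0.070 when VEGFD replicate 2 was left out, or -0.45 when VEGFD replicate 1 was. Its other probe set had signals of 2.59, 1.47, 2.33 and 1.51, all far under the filter, and is no check on the gene.

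Mt1 and Mt2 had nearly equal group means. Both encode metallothioneins, and in the RefSeq gene table they lie next to each other, beside Mt3 and Mt4. Mt1 had signals of 7165, 10182, 9745 and 7502, and Mt2 had 6345, 7976, 8339 and 6691. In both genes Apex replicate 2 and VEGFD replicate 1 were the high arrays, and Apex replicate 1 and VEGFD replicate 2 the low ones, so each group held a high and a low array and the groups overlapped. The log2 change was 0.0016 ± 0.27 for Mt1 (limma adjusted p = 0.998), with a 95% interval of -0.67 to 0.67. For Mt2 it was 0.070 ± 0.23 (limma adjusted p = 0.952), with an interval of -0.51 to 0.65. These intervals leave room for changes of up to about that size either way. With 1 array left out the changes ran from -0.25 to 0.25 for Mt1 and from -0.094 to 0.23 for Mt2, below 0 in both genes without Apex replicate 1 or VEGFD replicate 1. The highest array was 1.42 times the lowest for Mt1 and 1.31 times for Mt2. A wider log2 range was found in 65.5% and 78.8% of tested genes. The gap between the Apex replicates of Mt1 was exceeded by 21.1% of tested genes. Both genes were among the brightest, with 0.11% and 0.38% of tested genes brighter. Whether signals this high still follow the RNA amount in proportion was not tested. The probe set of Mt1 carries the suffix that marks matches to several transcripts, and its other, dim probe set had signals of 76.2, 47.7, 85.1 and 10.6. Averaging the 2 probe sets gave Mt1 a log2 change of -0.28. The tissue-restricted relatives Mt3 and Mt4 had mean signals under the filter.

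Hmox1, which encodes the inducible haem oxygenase that opens the haem ring, also had close group means. Its single probe set had signals of 1073, 1211, 1038 and 1418. VEGFD replicate 2 was the highest and VEGFD replicate 1 the lowest, so the VEGFD arrays spanned both Apex arrays. Its log2 change was 0.089 ± 0.25 (limma adjusted p = 0.944, 95% interval -0.54 to 0.72). Macrophages are rich in this transcript, and the 9 macrophage markers summed to 746 and 827 in the Apex arrays and to 680 and 787 in the VEGFD arrays. Of these 9, Cd163 and C1qa were at or below the filter on all arrays. Without VEGFD replicate 2 the Hmox1 change was -0.13, and without VEGFD replicate 1 it was 0.31.

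The genes of glutathione synthesis differed in their patterns over the arrays. Gclc encodes the catalytic subunit of glutamate-cysteine ligase, the enzyme of the rate-limiting step, and Gclm its modifier subunit, which makes the catalytic subunit more efficient. Gclc had signals of 924, 2129, 800 and 386. Apex replicate 2 was far above the rest, VEGFD replicate 2 far below, and Apex replicate 1 and VEGFD replicate 1 lay next to each other without overlap of the groups. Its log2 change was -1.31 ± 0.52, a 2.48-fold lower level in the VEGFD arrays (limma adjusted p = 0.823, 95% interval -2.63 to 0.0054). This was the widest range among the 10 genes, 5.52 times from lowest to highest signal, and 2.98% of tested genes had a wider one on the log2 scale. The other Gclc probe set had 490, 871, 433 and 184, the same order of arrays, and a log2 change of -1.16. The size rested on single arrays: the log2 change was -0.72 without Apex replicate 2, -0.80 without VEGFD replicate 2, -1.91 without Apex replicate 1 and -1.82 without VEGFD replicate 1. The gene was under 2-fold without Apex replicate 2 or without VEGFD replicate 2.

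Gclm did not share this pattern. Its signals were 490, 537, 636 and 459, with the highest and the lowest both in the VEGFD group. The log2 change was 0.074 ± 0.26 (limma adjusted p = 0.955, 95% interval -0.57 to 0.72), and its other probe set gave -0.014. Leaving out VEGFD replicate 1 gave Gclm -0.15, and leaving out VEGFD replicate 2 gave 0.30. Slc7a11 encodes the cystine importer that feeds this pathway. Its signals of 42.0, 17.8, 55.6 and 33.7 lay near the filter bound, 1 of them below it. The groups overlapped, the log2 change was 0.43 ± 0.39 (limma adjusted p = 0.836), and with Apex replicates 1 and 2 left out in turn it was 0.82 and 0.040. With VEGFD replicates 1 and 2 left out in turn it was 0.17 and 0.69. A pseudocount of 64 gave 0.21 and averaged probe sets 0.18. Its other probe set gave -0.076. Slc3a2, the heavy chain that partners the importer, was picked for mention with its values known. It measured 934, 1001, 1302 and 1076, with no overlap and a log2 change of 0.29 ± 0.22.

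Nqo1 encodes a quinone reductase that is a classical NRF2 target. It had signals of 186, 284, 114 and 131. Both VEGFD arrays were below both Apex arrays, and the VEGFD replicates lay closer together than the Apex replicates. Nqo1 thus had a log2 change of -0.83 ± 0.29, a 1.78-fold lower level (limma adjusted p = 0.823, 95% interval, not adjusted over genes, -1.57 to -0.094). A larger change in either direction was found in 7.11% of tested genes. Without Apex replicate 2 the log2 change was -0.55. With Gclc, Nqo1 was 1 of 2 genes among the 10 whose group difference exceeded the gap between replicates in both groups, a property of 23.9% of all tested genes. A single probe set represents Nqo1, so no other probe set checks it.

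Markers of other cells moved beside these lower values. The 4 measured adipocyte markers of 6 summed to 6102 and 7752 in the Apex arrays and to 3752 and 2954 in the VEGFD arrays, with Lep at or below the filter throughout. Both the adipocyte and the endothelial sums were highest in Apex replicate 2, the array in which Gclc and Nqo1 were highest. For the adipocyte sum this came mainly from Fabp4 (1741 and 4073 in Apex replicates 1 and 2). Lpl, the brightest of these markers, was highest in Apex replicate 1 (4309, against 3532 in Apex replicate 2). The part of either cell type in the Gclc and Nqo1 values was not tested.

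In the thioredoxin arm, Txnrd1 had the largest log2 change above 0 among the 10 genes. It encodes the cytosolic thioredoxin reductase and Srxn1 encodes sulfiredoxin, which restores over-oxidised peroxiredoxins. Txnrd1 had signals of 993, 860, 1232 and 2711. Both VEGFD arrays were above both Apex arrays, but VEGFD replicate 2 lay 1.13 above VEGFD replicate 1 on the log2 scale. Txnrd1 had a log2 change of 0.97 ± 0.40, a 1.96-fold higher level (limma adjusted p = 0.823, 95% interval -0.045 to 1.99). Its other probe sets had log2 changes of 0.96 and 0.68, also without overlap and highest in VEGFD replicate 2, and by its suffix the latter may cross-hybridise. Without VEGFD replicate 2 the log2 change was 0.41 (limma adjusted p = 0.81). Without VEGFD replicate 1 it was 1.54 and passed (adjusted p = 0.0322), in a fit that holds no variation between VEGFD arrays.

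Srxn1 had signals of 387, 524, 443 and 775. VEGFD replicate 2 was again the highest, but VEGFD replicate 1 lay between the Apex arrays, so the groups overlapped. Its log2 change was 0.37 ± 0.35 (limma adjusted p = 0.84), and with VEGFD replicates 2 and 1 left out in turn it was -0.025 and 0.76. With Apex replicates 1 and 2 left out in turn it was 0.16 and 0.58. The probe set of Srxn1 carries the same suffix as that of Mt1. The other 3 probe sets gave 0.32, 0.98 and 0.46, and that with 0.98 had no overlap. In those with 0.98 and 0.46 Apex replicate 1 was above Apex replicate 2. That with 0.46 was highest in Apex replicate 1, at 44.9, 8.69, 43.0 and 32.6. Hmox1, Txnrd1 and Srxn1 were highest, and Gclc, Gclm and Nfe2l2 lowest, in VEGFD replicate 2. It was thus an extreme for 6 of the 10 genes, where it was for 65.1% of all tested genes. VEGFD replicate 1 was also an extreme for 6 of the 10, against 45.8% of all tested genes, Apex replicate 2 for 5 (54.5%) and Apex replicate 1 for 3 (34.6%).

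Most smooth muscle markers were also highest in VEGFD replicate 2. The 6 markers summed to 4508 and 5209 in the Apex arrays and to 7163 and 16980 in the VEGFD arrays, while Myh11, which defines mature smooth muscle, was at or below the filter on all arrays. Acta2 and Tagln carried most of that sum in VEGFD replicate 2, at 8802 and 5553. Des, the desmin gene, ran the other way without overlap, at 85.0, 94.0, 10.1 and 51.1, for a log2 change of -1.33. The part of smooth muscle cells in the Txnrd1 and Srxn1 values was not tested. The plot of group differences with each array left out shows how far each value rests on 1 array, and the plot of marker sums sets the markers beside the genes.

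**Figure D3:**
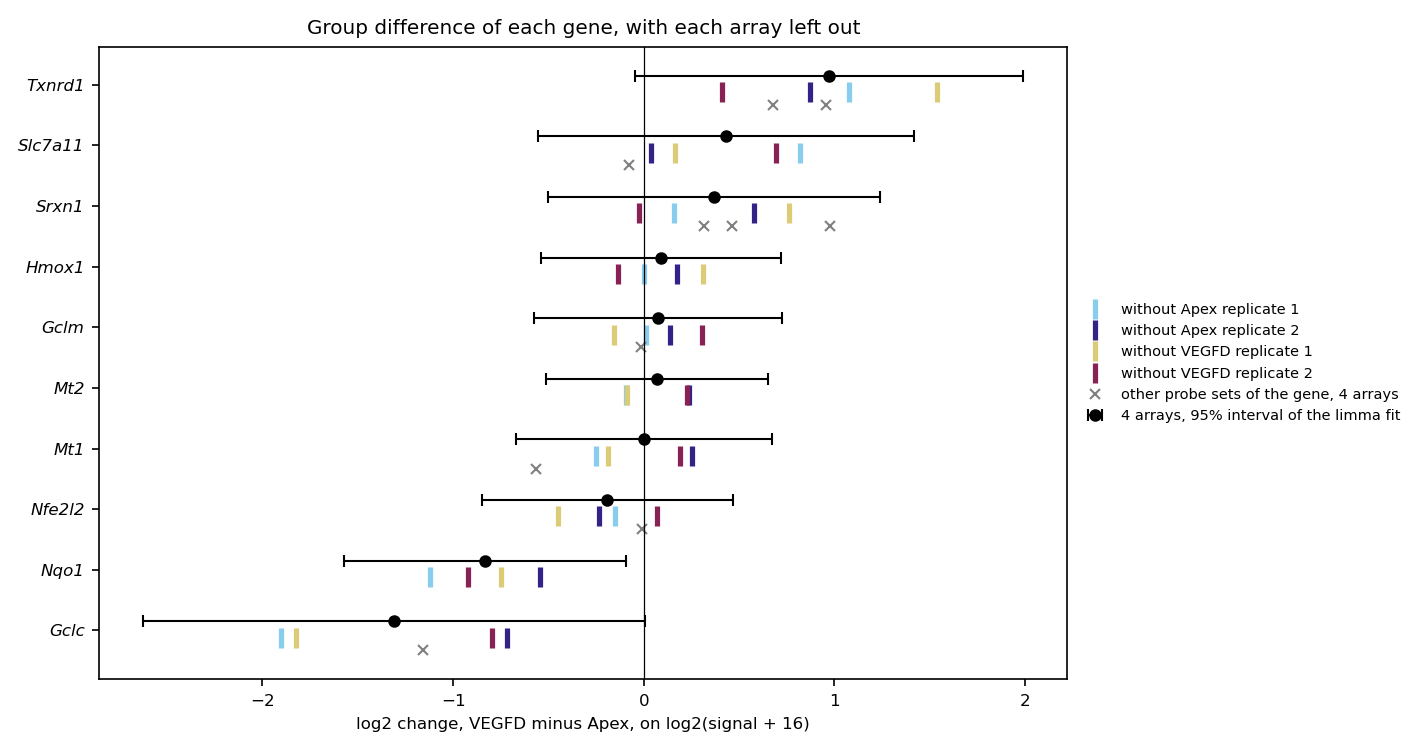
Group difference of each of the 10 genes. The horizontal axis is the log2 change, VEGFD minus Apex, black points with bars are the fit on 4 arrays with its 95% interval, coloured ticks are fits without 1 array, and grey crosses are the genes' other probe sets. Slc7a11 keeps its sign in all 4 fits without 1 array, as Gclc, Nqo1 and Txnrd1 must because their groups do not overlap. Txnrd1 spans 0.41 to 1.54.

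Genes with the most similar profile to Gclc over the 4 arrays were found by the root mean square distance between mean-centred log2 values. The nearest were Gab3 (0.15), Rgs2 (0.15), Adhfe1 (0.16) and Pcdhb16 (0.16). Rgs2, which encodes a regulator of G protein signalling, measured 114, 222, 95.5 and 42.8, for a log2 change of -1.12 ± 0.46. With 4 arrays many of the 11677 profiles lie close by, and nothing about shared control follows.

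Around these 10 genes, 8 lists of related genes held 133 different genes, of which 116 were tested. None passed in limma, and 12 of the 116 had an unadjusted p below 0.05, against 666 of 11677 tested genes (5.7%). At least 2-fold apart without overlap were 10 of the 116, 1 of them higher and 9 lower. The same bound held for 1.09% of all tested genes on the higher and 2.79% on the lower side. For 2 of the 9 lower genes, Mgst2 and Hp, both VEGFD signals were under the filter bound of 25.3. These genes passed the filter only through the Apex arrays, so their counts support nothing and their changes depend on the pseudocount. The median log2 change of the 116 genes was -0.17. Leaving out VEGFD replicate 2 turned the median above 0 in the lists of NRF2 regulators (0.11), glutathione genes (0.019), ATF4 response genes (0.20) and glucocorticoid response genes (0.15). Leaving out Apex replicate 2 turned that of NADPH supply and detoxification (0.098). The ATF4 median, -0.039 on all arrays, was also above 0 when Apex replicate 1 was left out (0.045), when probe sets were averaged (0.059) and when each array was centred (0.084).

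The list of NRF2 regulators and partners had 12 tested genes, 3 higher and 9 lower, with a median log2 change of -0.15. The largest difference was that of Nfe2l1, which encodes the related factor NRF1, a regulator of proteasome genes. Its signals were 825, 829, 457 and 396, with close replicates and no overlap, and a log2 change of -0.93 ± 0.22 (limma adjusted p = 0.782). It was -1.03 to -0.83 with any 1 array left out. Mafk, a small MAF partner gene, measured 809, 703, 809 and 295. Its log2 change of -0.60 ± 0.48 turned to 0.10 when VEGFD replicate 2 was left out and reached -1.31 when VEGFD replicate 1 was. Keap1, the gene of the NRF2 inhibitor, also picked with its values known, measured 293, 269, 264 and 139, for a log2 change of -0.51 ± 0.34 (limma adjusted p = 0.826).

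The list of glutathione synthesis and use held 5 of the 10 list genes at least 2-fold apart without overlap and was the longest of the 8 lists. Of its 24 tested genes 7 were higher and 17 lower, where all tested genes had 5417 higher and 6260 lower, and the median log2 change was -0.33. The 5 of 24 at least 2-fold apart without overlap stand beside 3.88% of all tested genes. These 5 include Mgst2, which passed the filter only through the Apex arrays and whose count supports nothing. Mgst3 and Mgst2, which encode microsomal glutathione transferases, had signals of 680, 1132, 285 and 192 and of 50.1, 198, 11.0 and 20.0. The log2 change was -1.84 ± 0.35 for Mgst3 (limma adjusted p = 0.688), -1.20 with averaged probe sets, and -1.93 ± 0.59 for Mgst2, -1.12 with a pseudocount of 64 and -1.09 without Apex replicate 2. The Mgst3 change was -2.10 without VEGFD replicate 1. In both transferases the VEGFD arrays were the low ones, and Apex replicate 2 was the highest. The VEGFD signals of Mgst2 were under the filter bound, so the size of its change is not well measured.

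Of the tested genes of cytosolic transferases, all but Gsto1 had log2 changes below 0. Gstm1 and Gstt1 were at least 2-fold lower in the VEGFD arrays without overlap, and Gsta2 and Gstp1 were lower by less than that without overlap. Gsta2, at 55.5, 35.2, 32.1 and 8.65, lay near the filter bound, with VEGFD replicate 2 below it. Gsto1 was higher without overlap. Gstm2 (log2 change -0.58), Gstm5 (-0.33) and Gsta4 (-0.68) were lower with overlap between groups. All but Gstm1 and Gstt1 were picked with their values known. Gsto1 measured 5248, 5212, 5695 and 5524, for a log2 change of 0.10 ± 0.19. Gstm1, which belongs to a family of similar sequences, had signals of 1530, 1987, 1357 and 232, so that VEGFD replicate 2 stood apart. Its log2 change was -1.59 ± 0.79 (limma adjusted p = 0.823), and -0.36 when VEGFD replicate 2 was left out. Leaving out VEGFD replicate 1 gave -2.82. Gstt1 had 150, 201, 95.0 and 45.5, for a log2 change of -1.20 ± 0.37, or -0.78 when VEGFD replicate 2 was left out. The single gene on the other side was Cth, which encodes the enzyme that makes cysteine from cystathionine. Its signals were 268, 105, 508 and 359, both VEGFD arrays above both Apex arrays, for a log2 change of 1.26 ± 0.46. Leaving out Apex replicate 2 gave 0.64, and leaving out Apex replicate 1 gave 1.88.

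Of 15 tested thioredoxin, peroxiredoxin and dismutase genes, 4 were higher and 11 lower (median -0.12). Cat, the catalase gene, was the 1 gene at least 2-fold apart without overlap, at 2232, 1764, 1331 and 655, for a log2 change of -1.07 ± 0.38 (limma adjusted p = 0.823). Leaving out VEGFD replicate 2 gave -0.57, and leaving out VEGFD replicate 1 gave -1.58. Txn1, which encodes the thioredoxin that Txnrd1 reduces, was picked with its values known and measured 3910, 5077, 3840 and 6468, with overlap and a log2 change of 0.16 ± 0.32.

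Of 15 tested genes of NADPH supply and detoxification, 6 were higher and 9 lower (median -0.20). Aox1, which encodes an aldehyde oxidase, measured 264, 357, 108 and 56.2, for a log2 change of -1.77 ± 0.35 (limma adjusted p = 0.706). Both VEGFD arrays were the low ones, and the change was -2.16 to -1.38 with any 1 array left out.

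The lists around Hmox1 and the metallothioneins differed from each other. Of 11 tested haem and iron genes 3 were higher and 8 lower (median -0.27), and 6 did not overlap between groups, against 38.5% of all tested genes. These 6 include Hp, which passed the filter only through the Apex arrays. Hp, which encodes the haemoglobin scavenger haptoglobin, had 34.2, 351, 2.21 and 12.7, with Apex replicate 2 far above the others. Its log2 change of -2.57 ± 0.94 was -1.14 when Apex replicate 2 was left out and -4.01 when Apex replicate 1 was. Pseudocounts of 64 and 1 gave -1.50 and -4.07, and both VEGFD signals were under the filter bound, so the size of the change is not well measured. Haptoglobin is also made by fat cells, whose summed markers, though not Lpl alone, were highest on the same array. The part of fat cells was not tested. Of 14 tested genes of zinc and copper handling 8 were higher and 6 lower (median 0.046), and none was 2-fold apart without overlap. Slc39a14, a zinc and iron importer gene, measured 359, 248, 613 and 417. Its log2 change of 0.73 ± 0.31 shrank to 0.46 without VEGFD replicate 1 and to 0.48 without Apex replicate 2. Slc31a1, the copper importer gene, measured 171, 128, 190 and 268. Its log2 change of 0.56 ± 0.29 shrank to 0.33 without VEGFD replicate 2 and to 0.37 without Apex replicate 2. Mtf1, the gene of the metal-sensing factor, picked with its values known, measured 131, 140, 139 and 135, for a log2 change of 0.0082 ± 0.24.

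Slc7a11 also answers to the amino acid response factor ATF4, and Mt1 and Mt2 to glucocorticoids, so both programmes were counted. Of 17 tested ATF4 response genes 7 were higher and 10 lower (median -0.039). Ddit4, a stress-induced inhibitor of mTOR signalling, measured 761, 991, 675 and 231. Its log2 change of -1.10 ± 0.51 was -0.36 when VEGFD replicate 2 was left out and -1.84 when VEGFD replicate 1 was. Of 10 tested glucocorticoid response genes 2 were higher and 8 lower (median -0.40). Zbtb16, a zinc finger factor gene, measured 866, 1087, 686 and 138, for a log2 change of -1.58 ± 0.71. Leaving out VEGFD replicate 2 gave -0.49, and leaving out VEGFD replicate 1 gave -2.68. In Ddit4 and Zbtb16 alike VEGFD replicate 2 was the array that stood apart, while VEGFD replicate 1 lay near the Apex arrays. The 2 higher glucocorticoid genes, Errfi1 and Sgk1, were picked with their values known and were the 2 of this list with an unadjusted p below 0.05. Errfi1, which encodes a feedback inhibitor of EGF receptor signalling, measured 2189, 1633, 3523 and 4040, for a log2 change of 0.99 ± 0.24 (limma adjusted p = 0.823). Sgk1, a kinase gene, measured 1880, 2552, 3359 and 3784, for a log2 change of 0.70 ± 0.24. In both genes the VEGFD arrays were the high ones. The plot of pathway lists shows all tested genes of the 8 lists.

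**Figure D4:**
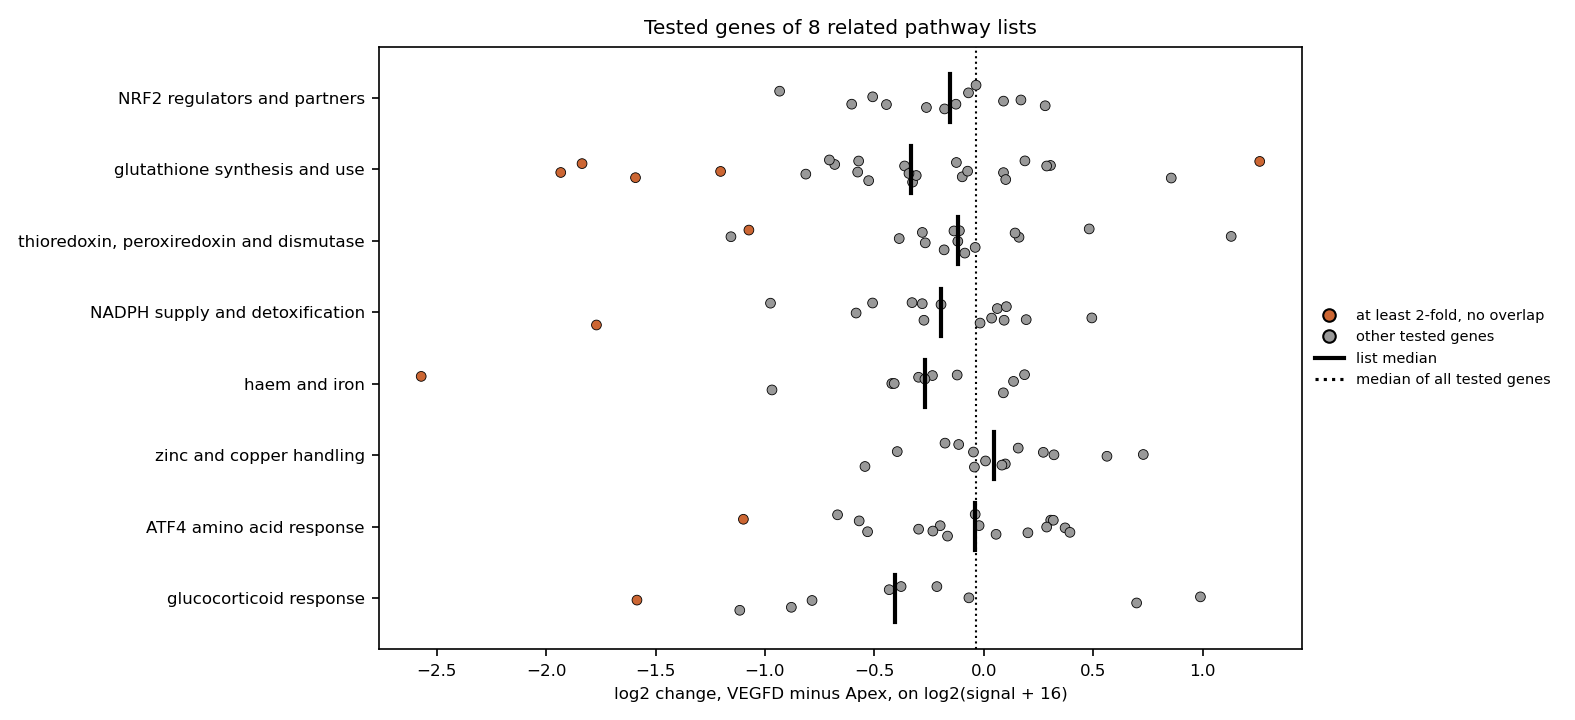
Log2 change, VEGFD minus Apex, of each tested gene in 8 related pathway lists. Each point is a gene, orange points are at least 2-fold apart without overlap, thick bars are list medians, and the dotted line is the median of all tested genes (-0.035). The lowest point is Hp at -2.57, whose VEGFD signals are under the filter bound, and the highest is Cth at 1.26.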

How the data were processed

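The deposited values were linear intensity, 1 probe set signal per array. No source used here names the algorithm. The values show that all arrays shared a mean of 150.0 after trimming 2% of probe sets at each end. No detection calls were used, and the number of arrays limits the precision. The platform annotation named 34945 of 45101 probe sets with 1 gene. Genes were tested when the mean log2(signal + 16) of their brightest probe set reached 5.37, the median of non-control probe sets, or a signal of 25.3. The fit used limma 3.58.1 in R 4.3.3 (lmFit, eBayes with intensity trend), two-sided, Benjamini-Hochberg over 11677 genes. A run on simulated arrays with independent normal errors checked only that known log2 changes were recovered on average. It holds no outlying array or mixed cells and is no check on these results. From each list every gene at least 2-fold apart without overlap was named, up to 6, or otherwise the 2 largest changes, and for the gene of widest range and largest difference (Gclc for both) the 4 nearest profiles. The 10 genes and the lists were chosen with earlier results of these data known. Promoters came from RefSeq. The alternatives, 13 in all, changed scaling, pseudocount, filter, probe set rule, block, variance prior and arrays.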

Additional observations from a re-analysis of the deposited data

How the results depend on the processing

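Over 13 alternatives Gclc, Nqo1 and Txnrd1 kept their direction, as did Slc7a11 in the 12 that could test it. For Gclc, Nqo1 and Txnrd1, whose groups did not overlap, leaving out 1 array could not change the sign. Changes of filter, block or variance prior left the log2 changes as they were. With 1 array left out the log2 changes ran from -1.91 to -0.72 for Gclc, -1.12 to -0.55 for Nqo1, 0.41 to 1.54 for Txnrd1, 0.040 to 0.82 for Slc7a11, -0.25 to 0.25 for Mt1, -0.094 to 0.23 for Mt2, -0.13 to 0.31 for Hmox1, -0.15 to 0.30 for Gclm, -0.025 to 0.76 for Srxn1, -0.45 to 0.070 for Nfe2l2 and -1.31 to 0.10 for Mafk. Mt1 was -0.28 with averaged probe sets. With 1 array left out, 0 to 372 of all genes and 0 to 1 of the 10 passed in limma, and 442 to 1348 of all genes and 0 to 3 of the 10 were 2-fold apart without overlap. That count over all genes was 453 in the main analysis, 229 with a pseudocount of 64 and 226 with the stricter filter, and for the 10 genes 2 with arrays centred on their medians. Centring moved the median change of all genes from -0.035 to 0.088. With the replicate number as a block 6 genes passed and 0 of the 10. Same-numbered arrays' deviations correlated at 0.20, over too few pairs to show pairing. List medians with 1 array left out ran from -0.37 to 0.11 for NRF2 regulators, -0.48 to 0.019 for glutathione, -0.26 to -0.029 for thioredoxin, -0.39 to 0.098 for NADPH, -0.52 to -0.11 for haem and iron, 0.058 to 0.14 for zinc and copper, -0.023 to 0.20 for ATF4 and -0.85 to 0.15 for glucocorticoid genes. The thioredoxin median was 0.0042 with arrays centred and -0.032 with averaged probe sets. The zinc and copper median was 0.17 and 0.20 in these settings and -0.017 without a filter. The ATF4 median was 0.084 with arrays centred and 0.059 with averaged probe sets. The causes of these shifts were not tested. A p short of the threshold with 2 arrays a group does not show equal levels.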
